A study of Rattus norvegicus with 12 samples.

Results

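UVB irradiation was set against mock irradiation in organotypic cultures of rat epidermal keratinocytes (REK) that had all been grown with betaine. REK is a keratinocyte line that stratifies into an epidermis-like tissue when it is lifted to the air-liquid interface, and the cultures held keratinocytes only, without feeder cells. The comparison used 6 of the 12 arrays of the study. The BET+UVB group was 3 cultures given 10 mM betaine for 11 days and 30 mJ/cm2 UVB 24 h before collection, and the BET group was 3 cultures given the same betaine for the same time with mock UVB. All cultures were 2 weeks old, with a well-formed epidermal layer, when they were collected. The other 6 arrays, 3 cultures given UVB alone (UVB) and 3 mock-irradiated controls (CTRL), both without betaine, entered the estimate of the spread and the test of whether the UVB effect differed with betaine. Nothing in the records tells whether the cultures were set up on separate occasions. The p-values therefore speak of the variation among these cultures of 1 cell line, part of which may be technical.

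UVB is absorbed by DNA, where it joins neighbouring pyrimidines into dimers that block transcription and replication. Keratinocytes remove these lesions by nucleotide excision repair, halt the cell cycle through p53 and the checkpoint kinases, release cytokines, and resume division once repair has proceeded, while the upper layers of the epidermis differentiate without dividing. Betaine, trimethylglycine, is an organic osmolyte that cells take up to balance their volume, and it is also a methyl donor for the remaking of methionine from homocysteine. Because the epidermis was lifted off whole, a higher signal can mean more RNA per cell or more cells that express the gene, and these cannot be told apart.

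Levels are log2 intensities after background correction and normalisation between arrays, each gene was read by 1 probe, and levels of different genes are not set against each other. On the 6 arrays the median raw intensity lay between 95.9 and 118, and 46.2% to 47.7% of 22523 probes were detected, that is, had a detection p-value under 0.05. Of 10937 genes tested, 10906 were detected on at least 1 of the 6 arrays. The 3 BET+UVB arrays correlated with each other at 0.996 to 0.997 across genes, and BET A with BET B at 0.996, while BET C stood further off, at 0.990 from BET A and 0.987 from BET B. All 10 keratinocyte markers on the array, Krt14, Krt10, Tp63 and Itgb4 among them, were detected on all 6 arrays. Of the markers of other cell types, 10 of 13 for fibroblasts, 7 of 12 for immune cells, 5 of 7 for melanocytes, 4 of 9 for endothelium and muscle and 2 of 9 for glandular epithelium were undetected on all 6, with Col1a1, Col1a2, Vim and Pdgfra among those at background. The mean log2 level over the 13 fibroblast markers was 5.69 to 5.73 in BET+UVB cultures and 5.59 to 5.67 in BET cultures. The 3 fibroblast markers that were measured were all higher in BET+UVB cultures, by 0.34 to 0.52. Col5a1 was at a mean of 8.47 against 7.94 in BET, and Col3a1 at 5.84 against 5.50. Col3a1 was detected on 2 BET+UVB arrays and 0 BET arrays. Only the calcium-binding protein S100a4 passed, with a rise of 0.46 ± 0.11 (adjusted p = 0.0264). That call was lost without BET+UVB B (adjusted p = 0.10), BET+UVB C (0.090) or BET A (0.10). None of the measured markers of the other cell types passed the test. The part of other cell types in the results below was not tested.

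In betaine-grown cultures UVB was followed after 24 h by higher levels of the genes that prepare, carry out and complete a round of cell division, and of genes that supply amino acids. The largest change was that of Cyp24a1, the vitamin D 24-hydroxylase. Among the genes that were lower were the kinase Prkg1, the integrin subunit Itga2 and the sodium pump subunit Atp1b1. In all, 672 of the 10937 genes differed between BET+UVB and BET cultures at an adjusted p under 0.05 (limma with Benjamini-Hochberg adjustment), 6.14% of those tested. Of these, 423 were higher (3.87%) and 249 lower (2.28%), and 143 changed at least 2-fold (1.31%), of which 115 were higher and 28 lower. The split and the 2-fold count depended on the processing: with arrays weighted by quality 1105 genes were higher and 1107 lower, and 19 genes changed at least 2-fold with the authors' processed values, 64 without background correction and 95 with an offset of 50. Without adjustment 2219 genes had a p under 0.05. The median change over all tested genes was -0.009. The BET+UVB and BET arrays did not overlap for 2982 genes (27.3% of those tested), 671 of the 672 called genes among them, so that separation of the groups adds nothing to a call. The count depended on single arrays: it was 366 without BET+UVB C, 426 without BET+UVB A, 433 without BET+UVB B, 426 without BET B and 455 without BET A, against 919 without BET C and 460 without both C arrays, and 0 of the 672 genes changed sign in any of these fits.

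Cyp24a1 encodes the mitochondrial enzyme that inactivates the active form of vitamin D, and in many tissues it is a target of the vitamin D receptor. Its log2 level was 13.18, 12.91 and 12.60 in the BET+UVB cultures, against 5.22, 5.18 and 4.96 in the BET cultures. It was detected on all 3 BET+UVB arrays and on none of the BET arrays, so the difference is a bound: Cyp24a1 was at least 157-fold higher after UVB (limma, adjusted p = 3.2e-11). That bound holds only for the normalisation used here. The log2 difference was 6.4 without background correction and 5.0 with the authors' processed values, both smaller than the bound. The rest of the vitamin D list did not move with Cyp24a1. Of 11 measured members, the receptor Vdr, its partner Rxra and the calcium channel Trpv6 among them, 1 other passed, Thbd, the thrombin receptor thrombomodulin, which rose by 0.50 ± 0.13 (adjusted p = 0.0406). The median change of the list was -0.005. The Thbd call was lost on leaving out any 1 array other than BET C (adjusted p 0.078 to 0.16).

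**Figure D1:**
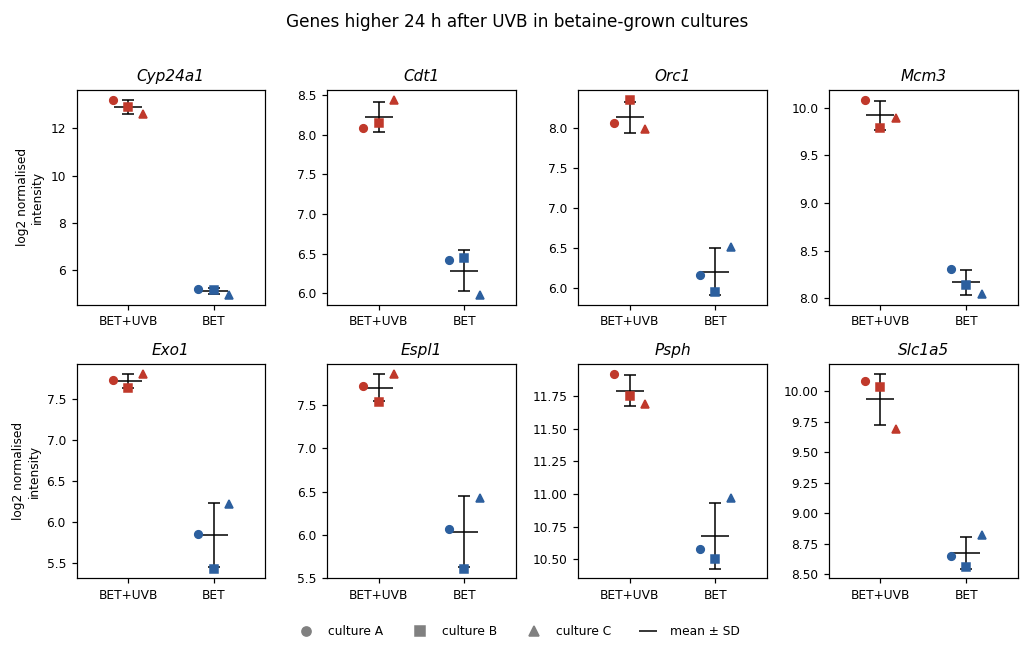
Log2 normalised intensity (vertical axis, a separate scale in each panel) of 8 genes on each BET+UVB and BET array, with culture A as a circle, B as a square and C as a triangle and the mean ± SD in black. In every panel all 3 BET+UVB cultures lie above all 3 BET cultures, and for Cyp24a1 the groups lie near 13 and 5.

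Before a cell can copy its DNA, the origin recognition complex, Cdc6 and Cdt1 load the ring-shaped Mcm helicase onto replication origins, a step called licensing, and the kinase subunit Dbf4 and the GINS proteins later fire the origins. Of 20 measured genes of licensing and firing 17 rose and 0 fell, with a median change of 1.14, against -0.009 over all genes. Cdt1 was at 8.08, 8.14 and 8.44 in BET+UVB cultures, against 6.42, 6.45 and 5.98 in BET cultures, a rise of 1.94 ± 0.22 (SE, n = 3 per group; adjusted p = 0.000166). Orc1, the largest subunit of the origin recognition complex, was at 8.06, 8.35 and 7.98 against 6.16, 5.95 and 6.51 in BET, a rise of 1.92 ± 0.16 (adjusted p = 1.78e-05). For both genes all BET+UVB cultures lay above all BET cultures.

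Subunits of the helicase itself were higher too. Mcm3 was at 10.08, 9.79 and 9.89 in BET+UVB cultures and at 8.31, 8.14 and 8.05 in BET cultures, a rise of 1.75 ± 0.11 (adjusted p = 6.85e-06). Mcm5 rose by 1.58 ± 0.19 (adjusted p = 0.000294), and its other probe on the array differed by 1.71. The loader Cdc6 was at 8.62, 8.67 and 8.72 against 7.07, 6.97 and 7.44 in BET, a rise of 1.51 ± 0.12 (adjusted p = 1.65e-05). The mean of the 20 genes on each array, taken relative to the BET mean, was 1.08, 1.06 and 1.10 in the BET+UVB cultures and 0.05, -0.02 and -0.04 in the BET cultures. The irradiated cultures thus lay close together, far above the mock-irradiated ones. Leaving out both C arrays left 17 genes of the list higher, and 16 to 19 were higher across all 18 alternative fits.

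The promoters of genes that license and copy DNA are known in mammals to carry sites for E2F transcription factors. The letters TTTCCCGC, TTTGGCGC, TTTCGCGC and TTTGCCGC were searched on both strands of the 250 bases before each gene's start (RefSeq, build GRCr8). Of 43 measured licensing and synthesis genes with a promoter in the table, 11 held at least 1 match (25.6%), against 249 of 7677 tested genes (3.24%) and 498 of 27457 promoters in all (1.81%). Within this list, 8 of the 35 genes that rose held a match (22.9%), no larger a share than in the list as a whole. Among all tested genes that rose, 24 of 292 held a match (8.22%), and among those that fell, 3 of 180 (1.67%). Whether E2F had a part in the changes was not tested. The licensing or synthesis genes with the largest rise and a match were Pclaf, Mcm5, Mcm8 and Mcm6, and 60 bases around the match nearest the start of each are shown to make these letters visible, with the matches in capitals. The Pclaf stretch is on the plus strand at chr8:75315646-75315705, that of Mcm5 on the plus strand at chr19:13488753-13488812, that of Mcm8 on the plus strand at chr3:140539587-140539646 and that of Mcm6 on the minus strand at chr13:42404454-42404513.
Pclaf: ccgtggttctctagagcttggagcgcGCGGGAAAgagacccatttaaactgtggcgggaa
Mcm5: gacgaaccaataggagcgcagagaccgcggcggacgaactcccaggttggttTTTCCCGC
Mcm8: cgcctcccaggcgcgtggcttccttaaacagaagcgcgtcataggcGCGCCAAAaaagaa
Mcm6: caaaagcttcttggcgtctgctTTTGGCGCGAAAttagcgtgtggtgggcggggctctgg
In Mcm6, 2 matches on opposite strands overlap, and Mcm5 holds 2 further matches outside the stretch shown. These letters were not found in the windows of Cdt1, Asf1b, Mcm3 and Pole, from which nothing follows about E2F at those genes.

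Genes of DNA synthesis were higher as well. Of 30 measured genes for polymerases, their clamp and clamp loader, nucleotide supply and chromatin assembly, 24 rose and 0 fell, with a median change of 0.77. Pclaf, a factor that binds the sliding clamp PCNA, was at 10.17, 9.91 and 10.13 in BET+UVB cultures and at 8.19, 8.19 and 8.23 in BET cultures, a rise of 1.87 ± 0.10 (adjusted p = 2.24e-06). Asf1b, which hands histones to newly copied DNA, was at 9.31, 9.26 and 9.37 against 7.52, 7.61 and 7.54 in BET, a rise of 1.76 ± 0.11 (adjusted p = 4.78e-06). Both had 3 tightly grouped cultures on each side. Pole, the catalytic subunit of the leading-strand polymerase, rose by 1.73 ± 0.14 (adjusted p = 1.65e-05) and its partner Pole2 by 1.47 ± 0.08 (adjusted p = 2.99e-06). The 6 genes of this list that did not pass still had positive changes, the smallest being 0.12. Without both C arrays 19 genes of the list were higher.

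Genes that repair broken or crosslinked DNA by recombination, a process tied to replication forks, were also higher: 9 of 14 measured members rose, 0 fell, and the median change was 0.93. Exo1, an exonuclease that resects DNA ends, was at 7.74, 7.63 and 7.80 in BET+UVB cultures and at 5.86, 5.43 and 6.22 in BET cultures, where it was detected on 2 of the 3 arrays and BET C was the highest. It rose by 1.88 ± 0.17 (adjusted p = 3.96e-05), and by 0.57 with the authors' processed values. Fancd2, the switch protein of the Fanconi crosslink pathway, rose by 1.63 ± 0.20 (adjusted p = 0.000345), and Rad54l, a motor protein of strand exchange, by 1.51 ± 0.21 (adjusted p = 0.000913).

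Mitosis genes build and steer the spindle and hold and release sister chromatids. Of 33 measured genes 28 rose and 0 fell, with a median change of 0.90. Espl1, the protease separase that releases sister chromatids, was at 7.71, 7.53 and 7.86 in BET+UVB cultures and at 6.07, 5.61 and 6.43 in BET cultures, a rise of 1.67 ± 0.17 (adjusted p = 7.17e-05). Spc24, a subunit of the kinetochore complex that grips microtubules, was at 10.70, 10.58 and 10.74 against 9.13, 9.16 and 9.31 in BET, a rise of 1.47 ± 0.10 (adjusted p = 9.81e-06). The spindle checkpoint kinase Ttk rose by 1.42 ± 0.16 (adjusted p = 0.000149) and Mis18a, which primes centromeres for new histones, by 1.37 ± 0.15 (adjusted p = 0.000178). Kntc1, a kinetochore checkpoint protein outside the list, rose by 1.72 ± 0.16 (adjusted p = 4.19e-05). BET C was the highest of the BET cultures for this list as a whole: the array means relative to the BET mean were 0.90, 0.77 and 0.93 in BET+UVB A, B and C, against -0.02, -0.16 and 0.18 in BET A, B and C. The groups did not overlap. Without both C arrays 26 genes of the list were higher, and 21 to 29 across all alternative fits.

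Upstream of these genes stand the cyclins, their kinases and E2F. Of 16 measured members 4 rose and 0 fell, with a median of 0.28. The repressor-type factor E2f8 was at 8.87, 8.54 and 8.89 in BET+UVB cultures and at 7.35, 7.29 and 7.55 in BET cultures, a rise of 1.37 ± 0.11 (adjusted p = 1.65e-05). Cyclin E2 (Ccne2) rose by 1.10 ± 0.13 (adjusted p = 0.000226) and the activator E2f1 by 0.88 ± 0.11 (adjusted p = 0.000436). Cyclin E1 (Ccne1) rose by 0.74 ± 0.16 (adjusted p = 0.0150), a call lost without BET+UVB B (adjusted p = 0.067), BET+UVB C (0.053), BET A (0.050) or BET B (0.063). E2f1 and E2f8 were thus higher together with the genes of licensing and synthesis described above. Among the largest rises were also LOC684490 (1.74 ± 0.19, adjusted p = 0.000166) and RGD1564040 (1.70 ± 0.17, adjusted p = 7.81e-05), which carry only a locus code.

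**Figure D2:**
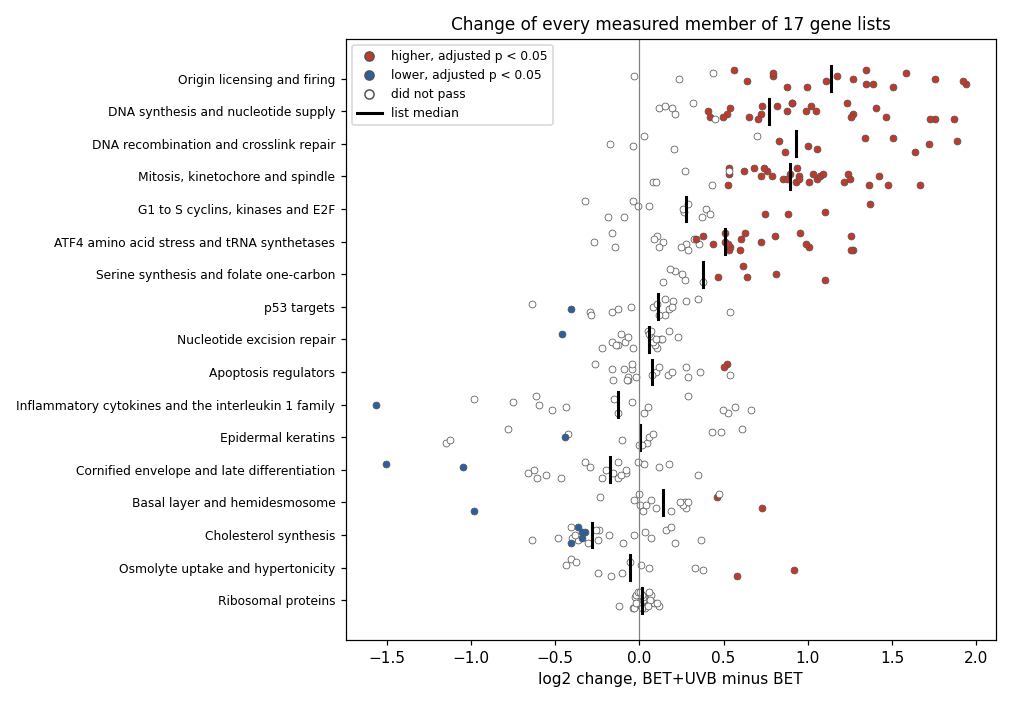
Log2 change between BET+UVB and BET cultures (horizontal axis) of every measured member of 17 gene lists (1 row each), filled red where higher and blue where lower at an adjusted p under 0.05 and open where the test was not passed, with the list median as a black bar. Medians of licensing, DNA synthesis, recombination and mitosis lie between 0.77 and 1.14, whereas those of p53 targets, excision repair and ribosomal proteins lie near 0.

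Genes that respond to a shortage of amino acids are driven in mammals by the factor ATF4 and include amino acid transporters, asparagine synthetase and the enzymes that charge transfer RNAs. Of 31 measured members 19 rose and 0 fell, with a median change of 0.51. Chac1, an enzyme that breaks down glutathione, was at 7.87, 7.66 and 7.44 in BET+UVB cultures and at 6.39, 6.50 and 6.27 in BET cultures, a rise of 1.27 ± 0.18 (adjusted p = 0.000769). The arginine and lysine transporter Slc7a1 was at 7.80, 7.82 and 7.90 against 6.56, 6.37 and 6.82 in BET, a rise of 1.25 ± 0.11 (adjusted p = 2.57e-05). The glutamine transporter Slc1a5 was at 10.08, 10.03 and 9.69 against 8.65, 8.56 and 8.82 in BET, a rise of 1.25 ± 0.14 (adjusted p = 0.000135). In each of the 3 genes all irradiated cultures lay above all mock-irradiated ones, as was so of 671 of the 672 called genes in their own direction. Asparagine synthetase (Asns) rose by 1.01 ± 0.14 (adjusted p = 0.000615). Without both C arrays 17 genes of the list were higher, and 12 to 23 across all alternative fits.

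Serine synthesis and the folate cycle supply carbon units for nucleotides. Of 11 measured enzymes 5 rose and 0 fell, with a median of 0.38. Psph, which completes serine synthesis, was at 11.92, 11.75 and 11.69 in BET+UVB cultures and at 10.58, 10.5 and 10.97 in BET cultures, a rise of 1.10 ± 0.13 (adjusted p = 0.000319). The mitochondrial folate enzyme Mthfd1l rose by 0.81 ± 0.10 (adjusted p = 0.000307). Phgdh, which opens the serine pathway, rose by 0.61 ± 0.11 (adjusted p = 0.00678), but not past the threshold without both C arrays (adjusted p = 0.0603), and the call of Shmt2 (0.64 ± 0.15, adjusted p = 0.0273) was lost on leaving out any 1 array (adjusted p 0.052 to 0.096). Without both C arrays 2 genes of the list were higher.

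The p53 protein switches on genes that halt the cell cycle and repair DNA. Of 18 measured p53 targets 0 rose and 1 fell, with a median of 0.11, against 3.87% higher and 2.28% lower over all genes, and 0 to 5 were higher across the alternative fits. The cell cycle inhibitor Cdkn1a (p21) was at 7.56, 6.97 and 7.16 in BET+UVB cultures and at 7.54, 7.27 and 8.80 in BET cultures, a difference of -0.64 ± 0.31 (adjusted p = 0.27). The groups overlapped, BET C lay far above the other BET cultures, and without that array the difference was -0.18. Mdm2, which degrades p53, differed by 0.17 ± 0.09 (adjusted p = 0.305). The member that fell was the stress sensor Sesn1 (-0.41 ± 0.09, adjusted p = 0.0174), a call lost without BET+UVB A (adjusted p = 0.086), BET+UVB C (0.050) or BET B (0.054).

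Nucleotide excision repair, the pathway that removes UVB dimers, held 21 measured genes, of which 0 rose and 1 fell, with a median of 0.06. That gene was Xpa, the damage verification factor, at 9.34, 9.44 and 9.36 in BET+UVB cultures and at 9.86, 9.84 and 9.82 in BET cultures, a change of -0.46 ± 0.08 (adjusted p = 0.00445), and its call held without both C arrays. Of 21 genes of damage tolerance and UV signalling 2 rose and 0 fell. Timeless, a replication fork protector, rose by 1.20 ± 0.19 (adjusted p = 0.0021), and the ubiquitin ligase Rad18, which starts damage bypass, by 0.45 ± 0.11 (adjusted p = 0.0295), a call lost on leaving out any 1 array other than BET C (adjusted p 0.053 to 0.13). Of 21 apoptosis regulators 2 rose and 0 fell, the death-promoting Bik (0.52 ± 0.12, adjusted p = 0.0212) and the receptor Tnfrsf12a (0.50 ± 0.12, adjusted p = 0.0256). Bik lost its call without BET+UVB A (adjusted p = 0.076), BET+UVB C (0.10) or BET B (0.081), and Tnfrsf12a on leaving out any 1 array other than BET+UVB A (adjusted p 0.053 to 0.12).

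Very long genes, whose transcription is the most likely to meet a dimer, had a median change of -0.10 over 32 measured members. Of these 0 rose and 3 fell, against 3.87% higher and 2.28% lower over all genes. Across the alternative fits 0 to 8 were lower, and with the authors' processed values 1 was higher and 0 lower. Whether dimers played a part was not tested. Diaph2, a formin that shapes actin, was undetected in BET+UVB cultures and at least 1.35-fold lower there (adjusted p = 0.0338). With the authors' processed values the log2 change of Diaph2 was -0.13. The kinase Prkce (-0.58 ± 0.13, adjusted p = 0.0233) and the exocyst subunit Exoc4 (-0.57 ± 0.13, adjusted p = 0.0220) also fell. Prkce lost its call without BET+UVB B (adjusted p = 0.099), BET+UVB C (0.068) or BET B (0.090), Exoc4 without BET+UVB A (0.098), BET+UVB C (0.075), BET A (0.089) or BET B (0.089), and Diaph2 on leaving out any 1 array other than BET B (0.050 to 0.12).

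Keratinocytes signal injury through the interleukin 1 family and chemokines. Of 17 measured cytokines and inflammatory genes 0 rose and 1 fell, with a median of -0.13. Il1a, the alarm cytokine stored in keratinocytes, was at 10.56, 10.29 and 9.93 in BET+UVB cultures and at 10.03, 10.43 and 10.17 in BET cultures, and the groups overlapped (difference 0.05 ± 0.29, adjusted p = 0.948). Il36a, an epidermal relative of interleukin 1, was at 9.96, 9.64 and 8.87 against 10.84, 11.38 and 10.95 in BET, a change of -1.57 ± 0.40 (adjusted p = 0.0391). BET+UVB C was by far the lowest culture, the call was lost on leaving out any 1 array other than BET+UVB A (adjusted p 0.054 to 0.16), and the name was reached through a synonym.

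Of 10 measured chemokines 1 rose and 2 fell. Cxcl10, which attracts T cells, was undetected in BET cultures and at least 1.44-fold higher in BET+UVB cultures (adjusted p = 0.0021). With the authors' processed values the log2 change of Cxcl10 was 0.23. Ccl5, also a T cell attractant, was at 5.92, 5.85 and 5.96 in BET+UVB cultures and at 6.53, 6.59 and 6.48 in BET cultures, a change of -0.62 ± 0.10 (adjusted p = 0.0027). Cxcl12 fell (-0.39 ± 0.09, adjusted p = 0.0220), a call lost without BET+UVB A (adjusted p = 0.067), BET+UVB B (0.066), BET+UVB C (0.091) or BET A (0.089). The monocyte attractant Ccl2 was at 7.57, 7.13 and 7.06 against 6.08, 6.25 and 6.48 in BET and did not overlap, but its difference of 0.99 ± 0.35 did not pass (adjusted p = 0.133), except under 2 of 18 alternatives, among them the fit of only the 2 groups compared (adjusted p = 0.0193). Of 14 interferon-stimulated genes 0 rose and 0 fell by the same test, with 2 at an unadjusted p under 0.05; the antigen-processing genes Psmb9 and Tap1 had the smallest p, with differences of 0.54 ± 0.17 (adjusted p = 0.0838) and 0.40 ± 0.11 (adjusted p = 0.058). Psmb9 passed under 3 of 18 alternatives, among them the replicate block (adjusted p = 0.0311) and only the 2 groups compared (0.0199), and Tap1 under 5.

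Among immediate early factors, which are switched on within minutes of a stimulus, 1 of 17 rose and 0 fell. The growth regulator Myc was at 12.29, 12.33 and 12.26 in BET+UVB cultures and at 11.77, 11.88 and 11.96 in BET cultures, a rise of 0.42 ± 0.09 (adjusted p = 0.0158), which was lost without BET+UVB A (adjusted p = 0.057), BET+UVB B (0.063), BET+UVB C (0.052), BET A (0.073) or BET B (0.050). Fos differed by 0.36 ± 0.23 (adjusted p = 0.423) and Egr1 by -0.07 ± 0.11 (adjusted p = 0.79). Of 19 genes of the EGF receptor system, 1 fell, the phosphatase Dusp1 (-0.37 ± 0.09, adjusted p = 0.0228). Its call was lost without BET+UVB A (adjusted p = 0.092), BET+UVB B (0.067), BET+UVB C (0.071) or BET B (0.052).

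TGF-beta restrains keratinocyte growth. Of 21 measured genes of TGF-beta and BMP signalling 1 rose and 3 fell. The ligand Tgfb2 was at 8.49, 8.32 and 8.52 in BET+UVB cultures and at 9.32, 9.11 and 9.21 in BET cultures, a change of -0.76 ± 0.11 (adjusted p = 0.00105). Ccn1, a matrix protein that TGF-beta and mechanical load induce, fell (-0.61 ± 0.11, adjusted p = 0.00413). The secreted BMP inhibitor Nbl1 fell (-0.72 ± 0.16, adjusted p = 0.0156) and the activin inhibitor Fst rose by 0.44 ± 0.09 (adjusted p = 0.0147). Nbl1 lost its call without BET+UVB A (adjusted p = 0.053), BET+UVB B (0.070) or BET A (0.059), and Fst without BET+UVB B (0.065), BET+UVB C (0.068), BET A (0.065) or BET B (0.060).

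**Figure D3:**
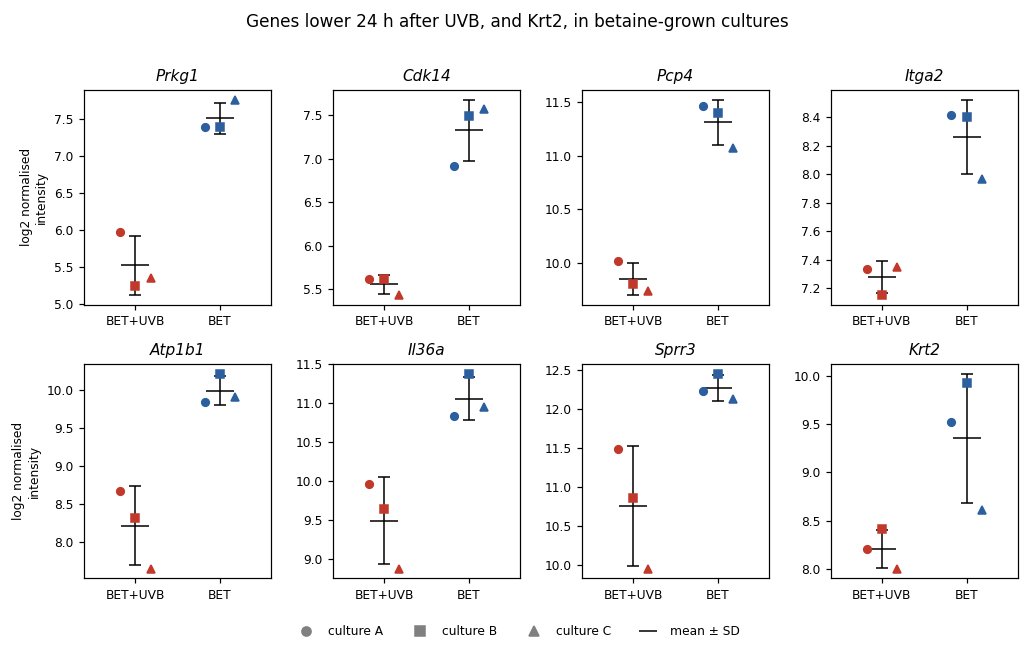
Log2 normalised intensity (vertical axis, a separate scale in each panel) of 8 genes on each BET+UVB and BET array, with culture A as a circle, B as a square and C as a triangle and the mean ± SD in black. In every panel all BET+UVB cultures lie below all BET cultures; Atp1b1, Il36a and Sprr3 were lowest in BET+UVB C and Krt2 was lowest in BET C among the BET cultures.

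The epidermal layers are told apart by their keratins. Of 14 measured keratins 0 rose and 1 fell, with a median of 0.01, against 3.87% higher and 2.28% lower over all genes. The suprabasal keratins Krt10 and Krt1 differed by 0.05 ± 0.07 (adjusted p = 0.768) and -0.0006 ± 0.092 (adjusted p = 0.999), and both probes read near the top of the intensity range. Krt2, a keratin of the uppermost living layers, was at 8.20, 8.41 and 8.0 in BET+UVB cultures and at 9.52, 9.93 and 8.61 in BET cultures. The groups did not overlap, but the difference of -1.15 ± 0.32 did not pass (adjusted p = 0.058), with BET C nearest to the irradiated cultures. Without BET C it was -1.52 (adjusted p = 0.0061), and without both C arrays -1.42 (adjusted p = 0.028). Krt2 passed under 8 of 18 alternatives, among them also the replicate block (adjusted p = 0.00828) and the authors' processed values (0.0349). Krt36, reached through a synonym, was detected on 1 BET+UVB array and 3 BET arrays and fell (-0.44 ± 0.11, adjusted p = 0.0401), a call lost on leaving out any 1 array (adjusted p 0.063 to 0.14).

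Of 22 genes of the cornified envelope and late differentiation 0 rose and 2 fell, with a median of -0.18. Padi1, which converts arginine to citrulline in filaggrin and keratins, was at 6.28, 6.31 and 6.43 in BET+UVB cultures and at 7.35, 7.81 and 7.0 in BET cultures, a change of -1.05 ± 0.22 (adjusted p = 0.0135). It lost its call without BET+UVB A (adjusted p = 0.054), BET+UVB B (0.050) or BET B (0.052). The envelope precursor Sprr3 was at 11.48, 10.86 and 9.95 against 12.23, 12.45 and 12.13 in BET, a change of -1.5 ± 0.39 (adjusted p = 0.0394) that was lost on leaving out any 1 array other than BET+UVB A (adjusted p 0.052 to 0.15). The irradiated cultures differed among themselves in this list: relative to the BET mean the array means were -0.13, -0.21 and -0.55 in BET+UVB A, B and C, against -0.03, 0.19 and -0.16 in BET A, B and C. Involucrin (Ivl), an early envelope protein, differed by -0.61 ± 0.25 (adjusted p = 0.192).

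At the base of the epidermis, integrins and hemidesmosomes anchor cells to the matrix. Of 18 measured members 2 rose and 1 fell. The collagen receptor subunit Itga2 was at 7.33, 7.15 and 7.34 in BET+UVB cultures and at 8.41, 8.40 and 7.96 in BET cultures, a change of -0.98 ± 0.12 (adjusted p = 0.000333). The laminin receptor subunits Itga3 and Itgb4 were higher, by 0.73 ± 0.19 (adjusted p = 0.0401) and 0.46 ± 0.11 (adjusted p = 0.0226). Itga3 lost its call on leaving out any 1 array other than BET+UVB A (adjusted p 0.058 to 0.16), and Itgb4 without BET+UVB B (0.075), BET+UVB C (0.099), BET B (0.081) or BET C (0.053). Without both C arrays 0 genes of the list were higher and Itga2 remained lower. Of 24 epidermal transcription factors 1 rose and 0 fell, against 3.87% higher and 2.28% lower over all genes.

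Genes of cholesterol synthesis, a pathway that feeds the lipid barrier, were lower as far as they passed: of 24 measured members 0 rose and 5 fell, with a median of -0.28. The mevalonate enzyme Mvd was at 10.97, 11.05 and 10.92 in BET+UVB cultures and at 11.39, 11.46 and 11.33 in BET cultures, a change of -0.41 ± 0.09 (adjusted p = 0.0197). Fdps (-0.36 ± 0.10, adjusted p = 0.0469), the sterol reductase Tm7sf2 (-0.34 ± 0.09, adjusted p = 0.0415) and the feedback protein Insig2 (-0.34 ± 0.08, adjusted p = 0.0220) also passed. All 4 calls rested on single arrays: Mvd was lost without BET+UVB A (adjusted p = 0.072), BET+UVB C (0.090), BET A (0.062) or BET B (0.081), Insig2 without BET+UVB A (0.090), BET+UVB B (0.050), BET+UVB C (0.089) or BET B (0.063), Tm7sf2 on leaving out any 1 array other than BET A (0.066 to 0.16) and Fdps on leaving out any 1 array (0.072 to 0.17). Without both C arrays 1 gene of the list was lower, and across the alternative fits 0 to 11 were. The 11 measured genes of fatty acid synthesis included 0 calls in either direction, with 2 at an unadjusted p under 0.05, and of 20 ceramide and barrier lipid genes 1 fell, the sphingomyelinase Smpd1 (-0.40 ± 0.08, adjusted p = 0.0150), which was lost without BET+UVB A (adjusted p = 0.051), BET+UVB C (0.068) or BET A (0.057).

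Betaine was present in both groups. Of 13 measured genes of osmolyte uptake and the hypertonic response 2 rose and 0 fell. Akr1b1, the aldose reductase that turns glucose into sorbitol, was at 12.46, 12.50 and 12.49 in BET+UVB cultures and at 12.09, 11.93 and 11.67 in BET cultures, a rise of 0.58 ± 0.12 (adjusted p = 0.0119) that missed the threshold without both C arrays (adjusted p = 0.0794). The inositol transporter Slc5a3 was at 9.96, 9.88 and 10.09 against 10.23, 10.02 and 10.99 in BET, where BET C was high, and did not pass (-0.44 ± 0.20, adjusted p = 0.239). The betaine transporter Slc6a12 was undetected on all 6 arrays. Of 21 genes of betaine, choline and methionine metabolism 1 rose and 1 fell: Ahcy, which clears the product of methyl transfer, rose by 0.40 ± 0.08 (adjusted p = 0.0153), and Pemt, which makes phosphatidylcholine, fell (-0.46 ± 0.12, adjusted p = 0.0465). Ahcy lost its call without BET+UVB A (adjusted p = 0.073) or BET+UVB C (0.078), and Pemt on leaving out any 1 array other than BET+UVB A (0.057 to 0.18). Bhmt, the enzyme that uses betaine to remake methionine, differed by 0.09 ± 0.14 (adjusted p = 0.773).

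Ion pumps moved in both directions. Of 13 measured genes of sodium, potassium and calcium pumps 3 rose and 2 fell. Atp1b1, the beta subunit of the sodium pump, was at 8.67, 8.32 and 7.64 in BET+UVB cultures and at 9.85, 10.22 and 9.91 in BET cultures, a change of -1.79 ± 0.34 (adjusted p = 0.00733). BET+UVB C was the lowest, and without both C arrays the change was -1.54 (adjusted p = 0.0583). The pump regulator Fxyd6 was at 8.57, 8.67 and 8.64 against 7.36, 7.4 and 7.47 in BET, a rise of 1.22 ± 0.10 (adjusted p = 1.65e-05), and another regulator, Fxyd4, fell (-0.90 ± 0.21, adjusted p = 0.0282). Fxyd4 lost its call without BET+UVB A (adjusted p = 0.070), BET+UVB B (0.098), BET+UVB C (0.087) or BET B (0.12). The calcium pump Atp2a3 was at 8.17, 7.66 and 7.82 against 6.46, 6.25 and 6.54 in BET, a rise of 1.47 ± 0.17 (adjusted p = 0.000247), and Atp2a2, its widely expressed relative, rose by 0.36 ± 0.08 (adjusted p = 0.0212), a call lost on leaving out any 1 array other than BET C (0.059 to 0.096).

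Among antioxidant genes 2 of 33 rose and 1 fell, against 3.87% higher and 2.28% lower over all genes. Metallothionein 1 (Mt1), which binds zinc and copper, was at 12, 12.09 and 11.99 in BET+UVB cultures and at 10.98, 10.99 and 11.05 in BET cultures, a rise of 1.02 ± 0.17 (adjusted p = 0.0027). Gclc, the rate-limiting enzyme of glutathione synthesis, was at 12.13, 12.23 and 12.16 against 11.47, 11.45 and 11.55 in BET, a rise of 0.68 ± 0.08 (adjusted p = 0.000196). Both separated the groups cleanly. The glutathione transferase Gsta2 fell (-1.51 ± 0.32, adjusted p = 0.0156), a call lost without BET+UVB C (adjusted p = 0.078) or BET B (0.069). Of 26 chaperones 2 rose and 0 fell, Hsp90aa1 (0.57 ± 0.11, adjusted p = 0.00717) and Hspa2 (0.68 ± 0.17, adjusted p = 0.0373), of which Hspa2 was lost on leaving out any 1 array other than BET B (0.064 to 0.14).

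Several metabolic genes outside these groups were lower. Of 16 esterases, cytochromes P450 and pyrimidine enzymes 0 rose and 3 fell. Aadac, an esterase of the endoplasmic reticulum, was at 4.95, 5.0 and 4.67 in BET+UVB cultures, where it was undetected on all 3 arrays, and at 6.82, 7.52 and 6.67 in BET cultures, and was thus at least 2.65-fold lower after UVB (adjusted p = 0.000411). That bound holds only for the normalisation used here, and with the authors' processed values the log2 change of Aadac was -0.54. The carboxylesterase Ces1d fell (-1.38 ± 0.28, adjusted p = 0.0119) and Cyp1a1, a target of the aryl hydrocarbon receptor (-0.82 ± 0.17, adjusted p = 0.0112). Ces1d was lost without BET+UVB A (adjusted p = 0.051) or BET+UVB B (0.053), and Cyp1a1 without BET+UVB A (0.053). A further P450 outside the list, Cyp2b21, fell (-1.51 ± 0.38, adjusted p = 0.0371) and was lost on leaving out any 1 array other than BET C (0.062 to 0.15).

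The other large falls were in genes of varied function. Prkg1, the cyclic GMP-dependent kinase, was at 5.97, 5.24 and 5.34 in BET+UVB cultures and at 7.38, 7.39 and 7.76 in BET cultures, a change of -1.99 ± 0.18 (adjusted p = 3.92e-05), while its other probe differed by -0.77. Cdk14, a kinase of the cyclin-dependent family, was at 5.62, 5.62 and 5.44 against 6.92, 7.49 and 7.57 in BET, a change of -1.77 ± 0.16 (adjusted p = 3.92e-05). Pcp4, a modulator of calmodulin, was at 10.02, 9.80 and 9.73 against 11.46, 11.40 and 11.07 in BET, a change of -1.46 ± 0.12 (adjusted p = 1.65e-05). In these genes all irradiated cultures lay below all mock-irradiated ones, and Prkg1 and Cdk14 were each detected on 1 of the 3 BET+UVB arrays. With the authors' processed values the log2 change was -0.55 for Prkg1, -0.47 for Cdk14 and -1.3 for Pcp4. The stromelysin Mmp10 fell (-1.55 ± 0.30, adjusted p = 0.0084), the muscle-type cytochrome oxidase subunit Cox8b (-1.5 ± 0.11, adjusted p = 9.81e-06) and the iron exporter Slc40a1 (-1.48 ± 0.32, adjusted p = 0.0168), the last being lost without BET+UVB C (adjusted p = 0.076) or BET B (0.068).

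Lists with few calls complete the account. A count of 1 or 2 calls in a list, here or above, is to be read beside the shares over all genes. These were 3.87% higher and 2.28% lower. Of 15 metalloproteases and inhibitors 2 rose, Mmp3 (0.66 ± 0.18, adjusted p = 0.0485) and Mmp2 (0.46 ± 0.10, adjusted p = 0.0219), and Mmp10 fell. Mmp3 was lost without BET+UVB B (adjusted p = 0.16), BET+UVB C (0.17), BET A (0.16) or BET C (0.098), and Mmp2 without BET+UVB A (0.069), BET+UVB B (0.094), BET A (0.073) or BET B (0.056). Of 18 serpins 1 fell, Serpinb3, an inhibitor of papain-like proteases (-1.01 ± 0.19, adjusted p = 0.00704), which missed the threshold without both C arrays (adjusted p = 0.0569). Of 12 hyaluronan genes 1 rose, the receptor Hmmr (0.73 ± 0.11, adjusted p = 0.0011), which also serves the mitotic spindle. The hyaluronan synthase Has2 differed by 0.24 ± 0.21 (adjusted p = 0.578), and its groups overlapped. Of 33 subunits of oxidative phosphorylation 0 rose and 1 fell, Cox8b. It was detected on 2 of the 3 BET+UVB arrays, and its log2 change was -0.39 with the authors' processed values. Of 24 ribosomal proteins 0 rose and 0 fell, 0 had an unadjusted p under 0.05, and all lay between -0.12 and 0.12.

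**Figure D4:**
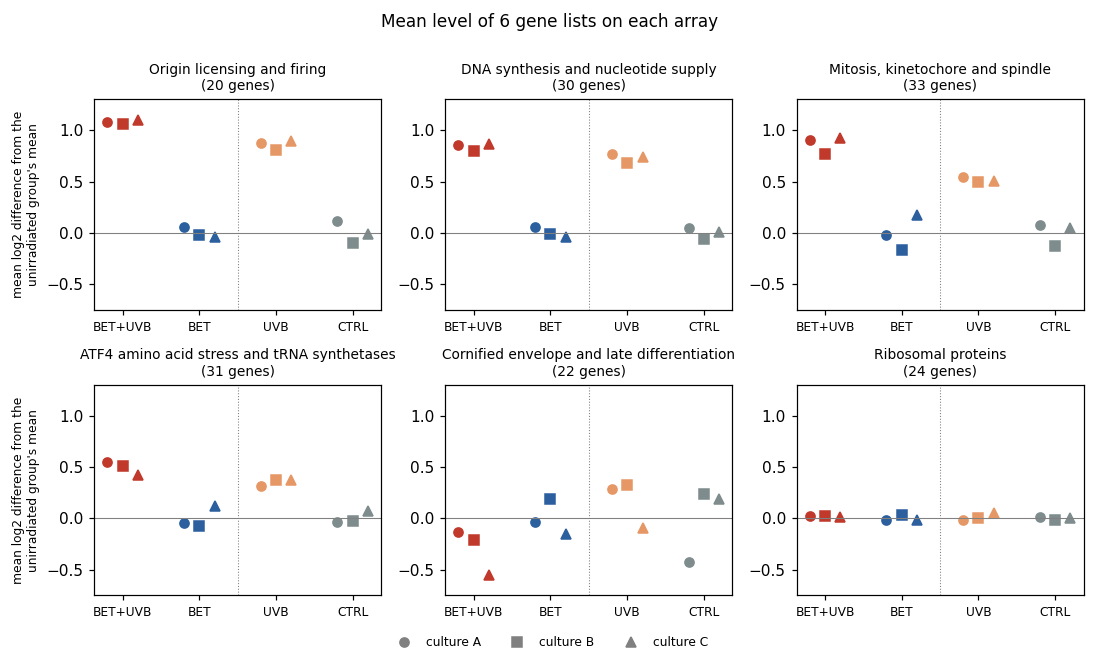
Mean log2 difference from the unirradiated group's mean (vertical axis, the same scale in all panels) over the measured genes of 6 lists on each of the 12 arrays, BET+UVB and BET relative to the BET mean and UVB and CTRL relative to the CTRL mean, with cultures A, B and C as circle, square and triangle. Licensing and synthesis genes lay at 0.79 to 1.10 in BET+UVB cultures, late differentiation genes were lowest in BET+UVB C at -0.55 and in CTRL A among cultures without betaine, and ribosomal proteins stayed near 0.

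The same dose of UVB without betaine allowed the response to be set beside a comparison of other cultures. The differences of both comparisons share no array, but each gene's standard error was the same in both, from the fit over all 12 arrays. A gene with a small spread can thus pass more easily in both. The calls were therefore not independent, and their overlap is a description. UVB and CTRL cultures differed in 542 genes (4.96% of those tested), of which 341 had also passed between BET+UVB and BET, all in the same direction, 240 higher and 101 lower. These were 50.7% of the 672 genes called with betaine and 62.9% of the 542 called without it. Of the 331 genes called only with betaine, 288 had the same sign without it and 43 the opposite sign. Across all 10937 genes the changes of both comparisons correlated at 0.57 (Pearson) and 0.36 (Spearman), a description over genes, which are not independent. The licensing genes had a median of 1.14 with betaine (17 of 20 higher) and 0.92 without it (18 of 20 higher). The DNA synthesis genes had 0.77 (24 of 30) and 0.67 (21 of 30). The mitosis genes had 0.90 (28 of 33) and 0.45 (14 of 33), and the amino acid stress genes 0.51 (19 of 31) and 0.32 (11 of 31). The mitosis genes Espl1, Spc24, Ttk and Mis18a averaged 6.035, 9.199, 7.76 and 6.075 in BET cultures. In CTRL cultures they averaged 6.701, 9.619, 8.312 and 6.334, higher for each gene. After UVB they averaged 7.701, 10.67, 9.181 and 7.44 with betaine and 7.505, 10.86, 9.172 and 7.801 without it. Whether the mock-irradiated levels differed with betaine was not tested. Of the 12 largest rises and 12 largest falls without betaine, most, Cyp24a1, Exo1, Orc1, Cdc6, Prkg1, Cdk14, Pcp4 and Aadac among them, passed in both comparisons. Those that did not pass with betaine were Krt2 and Ccl2, described above (-1.59 and 1.78 without betaine), LOC310586 and RGD1311993, known only by a locus code, the serpin Serpina9 (0.42 ± 0.31 with betaine, adjusted p = 0.494, and 1.67 without it) and the pyrimidine enzyme Upb1 (0.47 ± 0.18, adjusted p = 0.169, and 1.45).

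Whether the UVB effect differed with betaine was tested directly, as the BET+UVB minus BET difference less the UVB minus CTRL difference. Of 10937 genes 0 passed (0%) by limma with Benjamini-Hochberg adjustment, the smallest adjusted p being 0.429, although 880 (8.05%) had an unadjusted p under 0.05. With arrays weighted by quality 10 genes passed, the smallest adjusted p being 0.038, and with each other alternative that could be run 0 passed. The smallest unadjusted p belonged to Tbc1d25, a regulator of vesicle traffic, which differed by 0.19 ± 0.08 with betaine and by -0.50 without it. Next came the muscle enolase Eno3 (0.08 with betaine and -0.80 without it) and Slc7a1 (1.25 and 0.43). The keratin Krt36 had opposite signs (-0.44 and 0.39), as did the zinc finger gene Zfp775 (0.54 and -0.28) and the vesicle protein Sytl2 (0.17 and -0.46). Unadjusted interaction p-values of these 6 genes ran from 8.09e-05 to 0.000235. Of the 33 mitosis genes 15 had an unadjusted interaction p under 0.05, with a median interaction of 0.38, and 30 had the higher change with betaine. For the 20 licensing genes these values were 7, 0.22 and 16. For the 17 cytokines and inflammatory genes they were 6, -0.32 and 4. No list was tested, and genes of a list can move together. Il36a, Sprr3 and Il1a had interaction estimates of -1.76, -1.47 and -1.31, and in each of them CTRL A was the lowest of the CTRL cultures, at 9.38 for Il36a, against 11.12 and 10.87 in CTRL B and CTRL C. The count of 880 moved with single arrays: it was 540 without BET+UVB C, 584 without BET B, 591 without CTRL A, 1111 without CTRL B and 1385 without BET C, where the smallest adjusted p was 0.087.

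**Figure D5:**
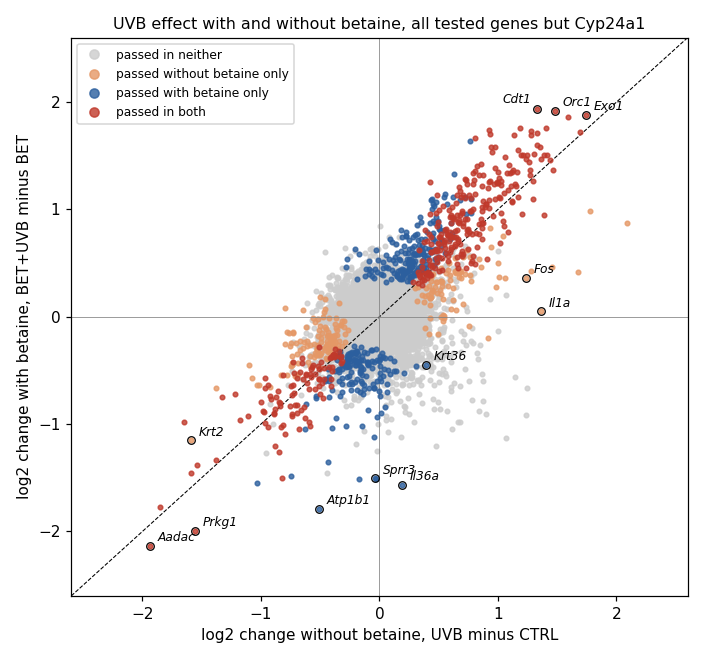
Log2 change with betaine (vertical axis, BET+UVB minus BET) against the change without betaine (horizontal axis, UVB minus CTRL) for all tested genes except Cyp24a1, which lies outside the axes and has only a bound, coloured by the comparison in which the gene passed, with the line of equal change dashed. Of the 341 genes that passed in both, Cyp24a1 is not drawn and the others lie in the quadrants of equal sign. Il36a, Sprr3 and Il1a lie far from the dashed line.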

How the data were processed

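Total RNA (400 ng per culture) was read on the Illumina RatRef-12 BeadChip. Per the file headers, the deposited table gives an average signal intensity and a detection p-value for 22523 probes on 12 arrays; the intensities are not normalised. A further table deposited by the authors holds processed values, whose range is that of log2 intensities, and was used as an alternative; their normalisation is not given in the sources used here. R 2.11 and limma are named in the submitters' processing notes, without a role. Every per-sample column was used.

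Intensities were background-corrected and quantile-normalised with neqc (limma 3.58.1, R 4.3.3, offset 16), with negative controls inferred from the detection p-values. Named probes were kept where 3 or more arrays had a detection p-value below 0.05 (11255, with 11268 left out), and the probe with the highest mean stood for each of 10937 genes. One model with a mean per group was fitted over all 12 arrays without a pairing term, and variances were moderated by empirical Bayes (3.83 prior beside 8 residual degrees of freedom). All genes entered the Benjamini-Hochberg adjustment, and an adjusted p under 0.05 was required. A change is printed ± its standard error. The number of arrays limits the precision; the median standard error was 0.12 log2 units, and 0.17 for the interaction. The procedure was run on simulated data with known changes and independent normal noise for each gene. Such data cannot show error rates where genes move together or where an array stands apart. A gene undetected on all arrays of a group has only a bound: the other group's mean against, per array, the higher of its own signal and the lowest signal of a detected probe. Such a bound holds for this normalisation only.

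Names were updated through RefSeq genes (GRCr8): 10291 probes matched by symbol, 1641 by gene ID and 4978 by a synonym, which is less certain, 5496 kept the array's name and 117 had none. Named through a synonym here are Pclaf, Orc1, Cdt1, Spc24, Mis18a, Cdk14, Il36a, Cox8b, Ces1d, Ccn1, Mt1, Diaph2, Krt1, Krt36, Tp63, Tbc1d25 and Zfp775. The comparison and the gene lists were chosen with earlier results of these data known. Lists are given by counts and medians, with no test of the list. Named are the 12 largest rises and falls, up to 4 genes per list and direction, a fixed set of UVB, keratin and osmolyte genes, the 6 smallest interaction p-values and the leading genes without betaine; not every one is described, and a few are not reported here. Alternatives were the authors' values, other background, scaling, filter, probe and model settings, a replicate block, array weights, leaving out each array and, chosen after seeing the data, leaving out both C arrays. Same-letter cultures did not deviate together throughout (correlation of deviations from the group means for BET+UVB and BET -0.05, 0.29 and 0.34, for UVB and CTRL -0.14, 0.18 and -0.12), so the letters were not taken as pairs.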

Additional observations from a re-analysis of the deposited data

How the results depend on the processing

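The count of 672 genes lay between 568 and 773 with the authors' processed values (759), no background correction, median scaling, an offset of 50, other filters on dim probes, the mean over probes, only the 2 groups compared (568) and trended, robust moderation. With arrays weighted by quality it was 2212, of which 50% were higher, against 62.9% in the unweighted fit. Without 1 array it ran from 366 (without BET+UVB C) to 919 (without BET C), and without both C arrays, an alternative chosen after seeing the data, it was 460. A fit with the replicate block gave 631, of which 583 were among the 672; the letters share only a label, and of the genes named by rule the block ended 6 calls (Fdps, Hspa2, Itga3, Pemt, Sprr3 and Tm7sf2) and added 3 (Krt2, Elovl7 and Psmb9). The count of genes changed at least 2-fold (143) was 19 with the authors' values, 64 without background correction and 95 with an offset of 50 and 119 to 171 without 1 array; the cause was not tested. The interaction count of 0 became 10 with array weights, with 0 in every other fit, leave-one-out fits included; with only the 2 groups compared it could not be run. The 672 genes had 0 changes of sign under any alternative, and the shift of the median over all genes never exceeded 0.1. Of 139 genes named by rule 99 passed; 54 of these passed under all 18 alternatives and 45 were lost under at least 1, 36 without both C arrays, 14 with only the 2 groups and 12 with the authors' values. Of the others, 10 gained a call under at least 1. With the authors' values Cyp24a1 differed by 5.0, Cdt1 by 0.72 and Espl1 by 0.52. The cause was not tested.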
